A study of Mus musculus with 6 samples.

Results

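The ABC transporter genes were examined in 6 subcutaneous tumours of mice, as all protein-coding rows of the gene count table whose symbol follows the pattern Abc, a subfamily letter from a to g, a number and an optional letter. This rule found 50 of the 19288 genes of the table, and it used no measured value. Of these, 8 are the drug efflux pumps Abcb1a, Abcb1b, Abcc1 to Abcc5 and Abcg2, and the other 42 are the remaining members of subfamilies A to G. The tumours were grown from LLC1 cells, the Lewis lung carcinoma line, implanted under the skin of the outcross of CB57BL/6 females (spelled as in the labels) with FVB males carrying a beta-hCG transgene. The progesterone tumours came from ovariectomized transgenic mice given progesterone, the vehicle tumours from ovariectomized transgenic mice given vehicle, and the transgenic tumours from mice with the transgene and no ovariectomy or supplement named. Each group had 2 libraries, supplementation ran for 28 days and tumours were collected at day 30. Every group carried the transgene, which supplies a subunit of human chorionic gonadotropin, and its promoter and the age of the hosts are not stated in the labels used here. The labels do not say that the 2 libraries of a group came from separate animals, so the p-values below measure the spread between libraries, which may be technical.

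ABC proteins share a nucleotide-binding domain that burns ATP to drive a membrane pump, which in the efflux pumps moves drugs and conjugated metabolites out of the cell. P-glycoprotein, which mice make from both Abcb1a and Abcb1b and humans from ABCB1 alone, exports bulky hydrophobic drugs such as vinca alkaloids, taxanes and anthracyclines. The multidrug resistance proteins of subfamily C export organic anions, among them glutathione and glucuronide conjugates, and Abcg2 exports agents such as mitoxantrone and topotecan. Other members move cholesterol, phospholipids, fatty acids, peptides or metal cofactors, and those of subfamilies E and F have no membrane domain and act on ribosomes and translation. In mice Abcb1b is the P-glycoprotein gene of the adrenal gland and the pregnant uterus, while Abcb1a is that of the gut and of brain capillaries.

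The bases just upstream of 4 genes are shown, because the pumps Abcb1b and Abcc4 and the lipid exporters Abca1 and Abcb4 are among the members with the smallest p-values described below. Each sequence is the 250 bases before the RefSeq transcription start on GRCm38.p6, read 5′ to 3′ on the strand of the gene, and capitals mark only the motif named after it.
Abcb1b: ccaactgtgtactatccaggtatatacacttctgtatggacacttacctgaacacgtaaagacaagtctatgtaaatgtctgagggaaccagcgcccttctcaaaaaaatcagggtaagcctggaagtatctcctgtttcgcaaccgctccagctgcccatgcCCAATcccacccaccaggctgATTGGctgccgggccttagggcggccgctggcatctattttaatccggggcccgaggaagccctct
Abcc4: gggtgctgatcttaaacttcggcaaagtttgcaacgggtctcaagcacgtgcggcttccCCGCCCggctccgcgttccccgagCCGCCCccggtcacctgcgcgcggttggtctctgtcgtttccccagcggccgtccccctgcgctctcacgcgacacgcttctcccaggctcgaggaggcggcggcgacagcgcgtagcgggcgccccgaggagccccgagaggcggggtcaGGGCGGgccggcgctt
Abca1: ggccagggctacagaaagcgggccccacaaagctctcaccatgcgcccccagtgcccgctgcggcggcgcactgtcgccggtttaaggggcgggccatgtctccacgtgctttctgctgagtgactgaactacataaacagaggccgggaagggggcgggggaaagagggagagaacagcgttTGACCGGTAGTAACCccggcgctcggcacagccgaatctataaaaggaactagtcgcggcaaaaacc
Abcb4: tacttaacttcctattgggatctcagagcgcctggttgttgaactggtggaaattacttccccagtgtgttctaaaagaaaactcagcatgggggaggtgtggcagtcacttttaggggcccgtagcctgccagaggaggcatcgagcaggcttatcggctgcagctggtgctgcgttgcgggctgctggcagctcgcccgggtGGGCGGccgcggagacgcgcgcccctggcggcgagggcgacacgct
The Abcb1b sequence lies at chr5:8797897-8798146 on the plus strand, and its capitals mark a CCAAT box at -87 to -83 and its reverse complement at -66 to -62. The Abcc4 sequence lies at chr14:118706220-118706469 on the minus strand, and its capitals mark 3 GC boxes (GGGCGG on either strand), which begin at -191, -167 and -16. The Abca1 sequence lies at chr4:53159896-53160145 on the minus strand, and its capitals mark GGTNA, any 5 bases and GGTNA again, read on the opposite strand, at -67 to -53. This direct repeat, here called DR4, is the type of element bound by the liver X receptors with their partner RXR, and Abca1 is a textbook target of these sterol sensors. The Abcb4 sequence lies at chr5:8893471-8893720 on the plus strand, and its capitals mark a GC box at -46 to -41. Both strands of 32851 RefSeq promoters of this length were searched, and 38 of the 50 ABC genes matched the table, with 45 promoters. The CCAAT box was in 13 of the 45 ABC promoters (28.9%) and in 33.8% of all promoters. The GC box was in 20 of 45 (44.4%) against 32.7%, and the E-box CACGTG was in 5 of 45 (11.1%) against 6.02%. The DR4 letters were in 1 of 45 (2.22%), that of Abca1, against 0.621% of all promoters. A match is a match of letters only, and no binding was measured.

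Library totals ran from 19526775 to 30083925 counts, and ABC genes took 0.163% to 0.189% of them. A count of 0 allows up to 3 counts, or 0.0997 CPM (read counts scaled to a common library size) in the deepest and 0.154 CPM in the shallowest library, and these limits cover counting error only. Bulk RNA holds tumour and host cells together, so that fewer cells of a type and less RNA per cell cannot be told apart. The epithelial keratins Krt8 and Krt18 were at 125 to 393 CPM in all libraries, whereas the epithelial adhesion gene Epcam reached at most 0.222 CPM and the lung surfactant gene Sftpc was at 0 in 4 libraries. Summed fibroblast markers (10 genes) ran from 1958 CPM in transgenic replicate 2 to 11702 CPM in vehicle replicate 2. Summed red blood cell markers (7 genes) were at 86.2 and 167 CPM in progesterone tumours, 2503 and 299.9 CPM in vehicle tumours and 2828 and 65.5 CPM in transgenic tumours. The part of these cell types in the values below was not tested unless a value is given there.

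The drug efflux pumps ranged from among the highest ABC transcripts to nearly none. Levels were compared per kilobase of annotated exon, over all 6 libraries, in CPM scaled by TMM (trimmed mean of M-values). Abce1, which splits ribosomes after translation ends, led with 46.9 CPM per kb, next to Abcf1 with 46.8 and Abcf2 with 42.7, and the ranges of these 3 over libraries overlapped. Among the pumps the order was Abcc1 (12.2 CPM per kb), Abcc4 (9.55), Abcc5 (7.04), Abcb1b (6.96), Abcc3 (2.37), Abcb1a (1.64), Abcg2 (1.01) and Abcc2 (0.0100). Neighbours in this order, such as Abcc5 and Abcb1b, overlapped in their ranges over libraries, except that Abcb1b lay above Abcc3 and Abcg2 above Abcc2 in every library. Abcc1 ranked 6 and Abcc2 45 of 50. With the longest annotated transcript as the length, the levels per kb of 16 genes moved by more than the spread. Abcc1 then stood at 27.2 CPM per kb, rank 4. The order of the pumps changed below it, with Abcc5 (12.93) and Abcb1b (12.92) above Abcc4 (10.67), and their ranges over libraries overlapped.

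**Figure D1:**
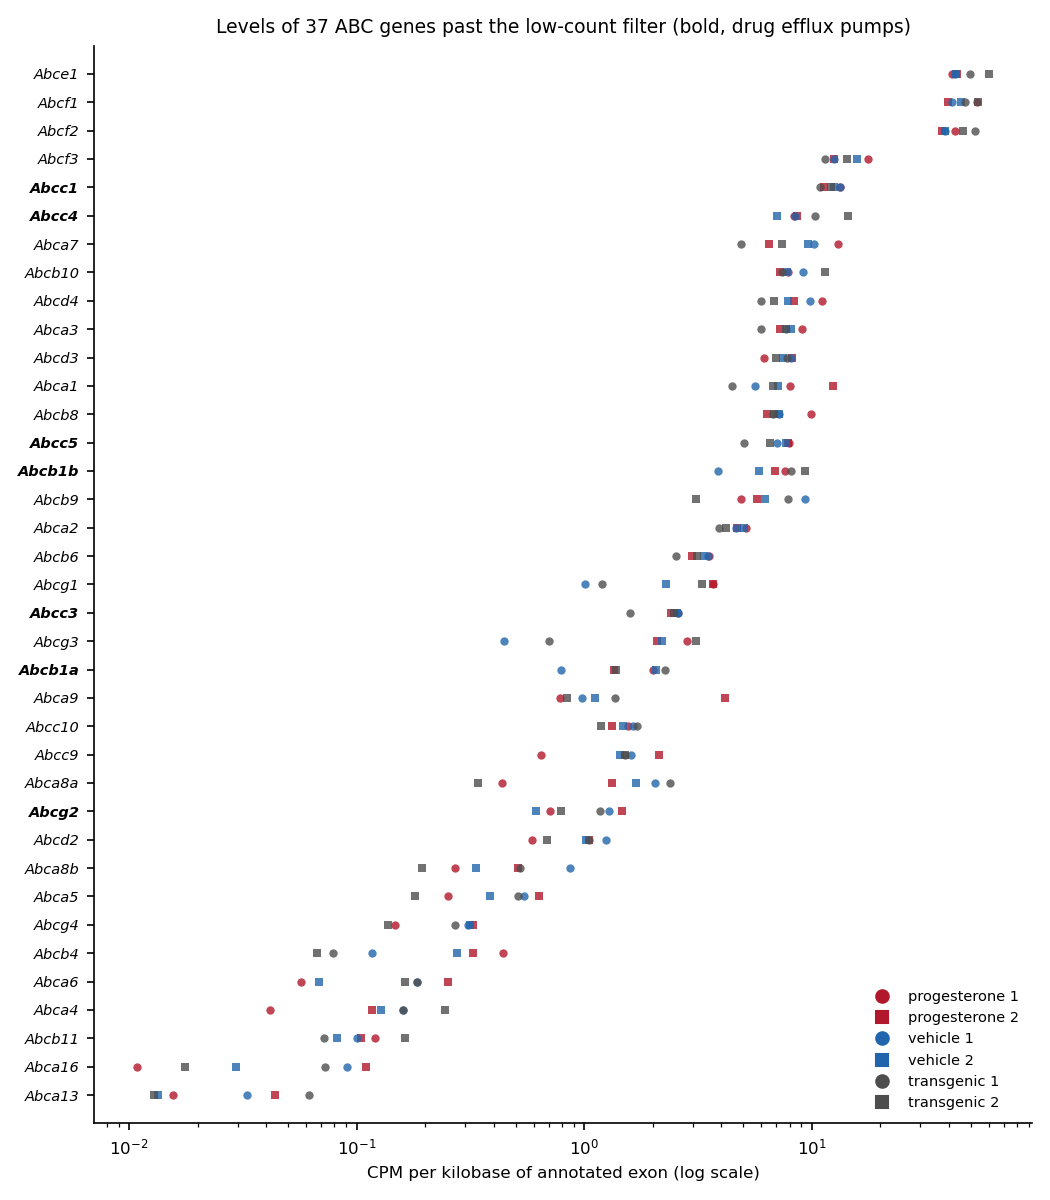
Level of 37 of the 39 ABC genes past the low-count filter, in CPM per kilobase of annotated exon on a log axis, with 1 point per library coloured by group (progesterone, vehicle, transgenic) and pump names in bold. Abce1, Abcf1 and Abcf2 stand at the top with means of 42.7 to 46.9, and Abcc1 is the highest pump with a mean of 12.2.

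No ABC gene passed the test in any comparison. Of the 50 genes, 39 passed the low-count filter (7 pumps and 32 others), and all counts below are over these 39. In progesterone against vehicle tumours edgeR called 0 of 39 ABC genes at an adjusted p under 0.05 (background 0% of the 13632 genes tested). At an unadjusted p under 0.05, edgeR had 2 of 39 (background 5.29%), 2 of them higher (background 2.77%) and 0 lower (background 2.52%). By the same threshold DESeq2 had 3 and limma-voom 2, and neither tool called any of the 39 after adjustment. Background shares at an unadjusted p, here and below, are of edgeR alone. The DESeq2 and limma-voom counts at that threshold have no such share beside them and cannot be set against that of edgeR. In vehicle against transgenic tumours edgeR called 0 of 39 (background 0%), with 4 at an unadjusted p under 0.05 (background 5.57%), 5 by DESeq2 and 2 by limma-voom. Of these 4, 1 was higher (background 2.68%) and 3 were lower (background 2.89%). In progesterone against transgenic tumours edgeR called 0 of 39 (background 0%), with 6 at an unadjusted p under 0.05 (background 5.27%), 7 by DESeq2 and 7 by limma-voom. Of these 6, 5 were higher (background 2.73%) and 1 was lower (background 2.54%). DESeq2 called 0.539%, 0.523% and 0.344% of all genes in these comparisons, taken in the same order, and called 0 ABC genes. The smallest adjusted p of any ABC gene was 0.939, 0.811 and 0.914 by edgeR in the same order, and 0.112 in any alternative fit.

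The 2 groups of a comparison did not overlap for 10 of 39 ABC genes in progesterone against vehicle tumours (background 36.2%), for 17 in vehicle against transgenic tumours (background 35.6%) and for 13 in progesterone against transgenic tumours (background 29.0%). In progesterone against vehicle tumours 7 of these lay higher (background 18.5%) and 3 lower (background 17.8%). In vehicle against transgenic tumours 11 lay higher (background 17.9%) and 6 lower (background 17.7%), and in progesterone against transgenic tumours 7 lay higher and 6 lower (background 14.5% each). The log2 fold change was above 0 for 21 of 39 in progesterone against vehicle tumours (background 51.1%), 23 in vehicle against transgenic tumours (background 48.5%) and 21 in progesterone against transgenic tumours (background 51.0%). The median log2 fold change of the 7 pumps was 0.14 in progesterone against vehicle tumours, beside 0.01 for the 32 others and 0.01 for all genes tested. In vehicle against transgenic tumours it was -0.04 for pumps, 0.12 for the others and -0.01 for all genes. In progesterone against transgenic tumours it was 0.10 for pumps, 0.16 for the others and 0.01 for all genes. The 3 comparisons share libraries, so their values are given side by side and are not independent of each other.

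**Figure D2:**
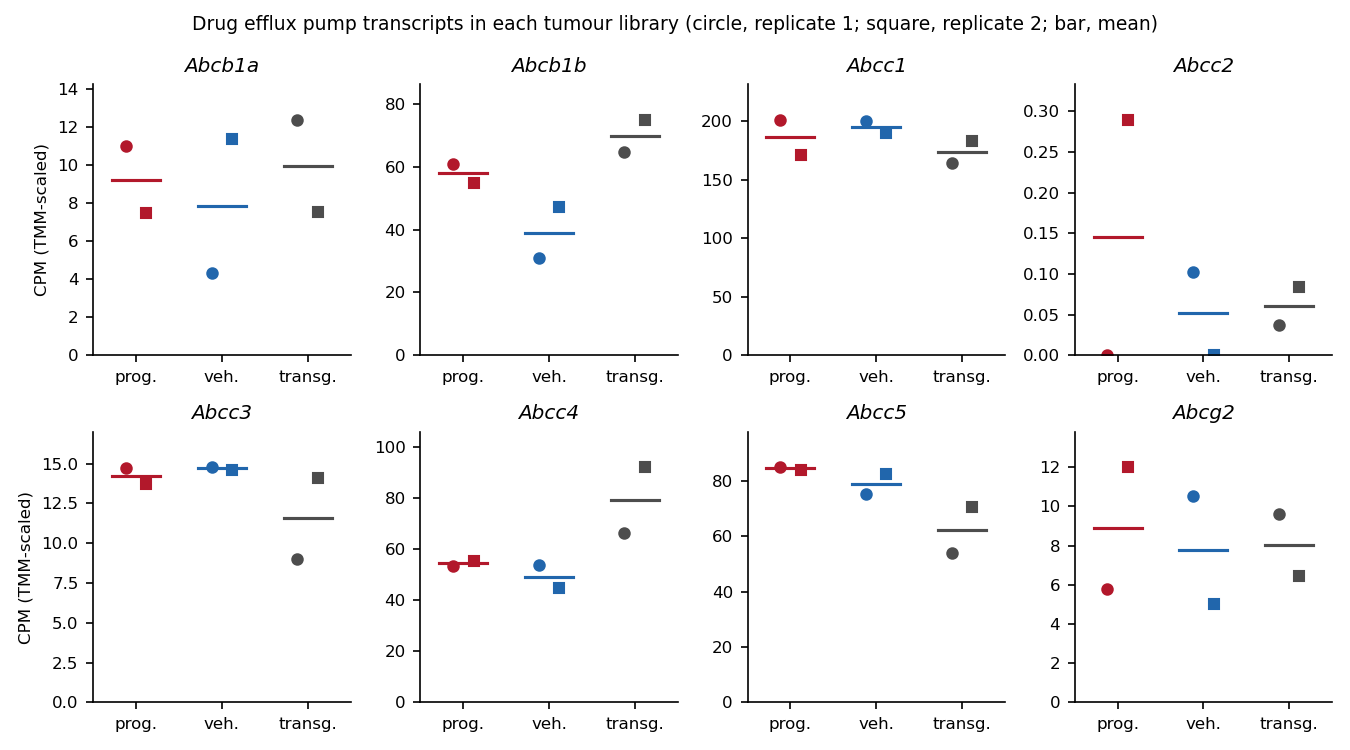
CPM of the 8 drug efflux pumps in each library (circle, replicate 1; square, replicate 2; bar, mean of the 2) for progesterone, vehicle and transgenic tumours, each panel with its own axis from 0. For Abcb1b both vehicle libraries (30.8 and 47.2 CPM) lie below all others, both transgenic libraries lie highest for Abcb1b and Abcc4, and the groups overlap for Abcb1a and Abcg2.

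Abcb1b, the P-glycoprotein gene with most of the Abcb1 reads, had 61.0 and 55.0 CPM in progesterone tumours, 30.8 and 47.2 CPM in vehicle tumours and 64.8 and 75.0 CPM in transgenic tumours. Both vehicle libraries lay below all 4 others, both transgenic libraries lay above all 4 others, and no pair of groups overlapped. Its log2 fold change was 0.57 ± 0.23 (SE) in progesterone against vehicle tumours (edgeR adjusted p = 0.939) and -0.84 ± 0.23 in vehicle against transgenic tumours (edgeR adjusted p = 0.811). In progesterone against transgenic tumours it was -0.27 ± 0.23 (edgeR adjusted p = 0.963), and -0.16 without transgenic replicate 2. The difference between progesterone and vehicle tumours was 0.29 without vehicle replicate 1 and 0.91 without vehicle replicate 2.

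Abcb1a, the other P-glycoprotein gene, had 11.0 and 7.45 CPM in progesterone tumours, 4.32 and 11.3 CPM in vehicle tumours and 12.4 and 7.54 CPM in transgenic tumours. Each group held a high and a low library, and all 3 groups overlapped. The log2 fold changes were 0.24 ± 0.52 in progesterone against vehicle, -0.35 ± 0.52 in vehicle against transgenic and -0.11 ± 0.51 in progesterone against transgenic tumours. Their signs turned when vehicle replicate 1 was left out (-0.30 and 0.19 in the comparisons with vehicle tumours) or when transgenic replicate 1 was (0.05 and 0.29 in those with transgenic tumours). They also turned without progesterone replicate 1 (-0.07 against vehicle) and without progesterone replicate 2 (0.15 against transgenic).

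Abcb1b exceeded Abcb1a in every library, by 5.54 and 7.39 times in CPM in progesterone tumours, 7.14 and 4.16 times in vehicle tumours and 5.23 and 9.94 times in transgenic tumours. These ratios overlapped between all groups. The genes lie side by side with Abcb4 within 299 kb of chromosome 5 (8660077 to 8959231), and of the 50-base windows of their transcripts 15.5% of Abcb1a were shared with Abcb1b and 18.0% of Abcb1b with Abcb1a. Reads in those windows can be split or dropped by the counting, so the genes were also summed, giving 72.0 and 62.5 CPM in progesterone tumours, 35.2 and 58.5 CPM in vehicle tumours and 77.1 and 82.6 CPM in transgenic tumours. The sum had log2 fold changes of 0.52 ± 0.25 in progesterone against vehicle, -0.77 ± 0.25 in vehicle against transgenic and -0.25 ± 0.25 in progesterone against transgenic tumours, with edgeR adjusted p of 0.944, 0.827 and 0.970 in that order. Each P-glycoprotein gene also overlaps an annotated gene on the opposite strand (Gm42686 for Abcb1a, Gm5106 for Abcb1b), and whether the counting used the strand is not given in the sources used here.

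Abcc4, which exports cyclic nucleotides, prostaglandins and nucleotide analogues, had 53.6 and 55.3 CPM in progesterone tumours, 53.8 and 44.8 CPM in vehicle tumours and 66.3 and 92.2 CPM in transgenic tumours. Both transgenic libraries lay above the 4 libraries of ovariectomized hosts, which overlapped with each other. Its log2 fold change was -0.68 ± 0.21 in vehicle against transgenic tumours (edgeR adjusted p = 0.811) and -0.54 ± 0.20 in progesterone against transgenic tumours (edgeR adjusted p = 0.914). Without transgenic replicate 2 these were -0.42 and -0.29. In progesterone against vehicle tumours it was 0.14 ± 0.20 (edgeR adjusted p = 0.999). Abcc4 overlaps Gm49033 and Gm23302 on the opposite strand.

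Abcc5, an exporter of cyclic GMP and of nucleotide analogues, ran the other way. It had 84.9 and 83.9 CPM in progesterone tumours, 75.1 and 82.5 CPM in vehicle tumours and 54.0 and 70.4 CPM in transgenic tumours. The 3 groups did not overlap, with progesterone tumours highest and transgenic tumours lowest, although transgenic replicate 2 came close to the vehicle libraries. The log2 fold change was 0.44 ± 0.17 in progesterone against transgenic tumours (edgeR adjusted p = 0.914), 0.34 ± 0.17 in vehicle against transgenic tumours (edgeR adjusted p = 0.883) and 0.10 ± 0.17 in progesterone against vehicle tumours (edgeR adjusted p = 0.999). Without transgenic replicate 1 the difference from transgenic tumours was 0.26 for progesterone and 0.16 for vehicle tumours, and without transgenic replicate 2 it was 0.64 for progesterone and 0.55 for vehicle tumours.

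Abcc1, which exports glutathione conjugates and the leukotriene LTC4 and was found in a drug-resistant human lung cancer line, had 201 and 171 CPM in progesterone tumours, 200.2 and 189.6 CPM in vehicle tumours and 164 and 183 CPM in transgenic tumours. It took 46.5% and 42.9% of pump CPM in progesterone tumours, 51.4% and 48.0% in vehicle tumours and 43.2% and 40.8% in transgenic tumours. The CPM of vehicle and transgenic tumours did not overlap, and the progesterone pair overlapped both groups. The log2 fold changes were -0.07 ± 0.16 in progesterone against vehicle, 0.17 ± 0.16 in vehicle against transgenic and 0.10 ± 0.16 in progesterone against transgenic tumours. The first of these turned to 0.05 without progesterone replicate 2, and the last to -0.03 without progesterone replicate 1.

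Abcc3, which exports glucuronides and bile salts at the basolateral side of epithelia, had 14.7 and 13.7 CPM in progesterone tumours, 14.8 and 14.6 CPM in vehicle tumours and 9.04 and 14.1 CPM in transgenic tumours. The 4 libraries of ovariectomized hosts were nearly level, and transgenic replicate 1 alone was lower. The log2 fold changes were -0.05 ± 0.29 in progesterone against vehicle, 0.35 ± 0.29 in vehicle against transgenic and 0.30 ± 0.29 in progesterone against transgenic tumours. Without transgenic replicate 1 the difference from transgenic tumours was 0.01 for progesterone and 0.06 for vehicle tumours, and without transgenic replicate 2 it was 0.65 for progesterone and 0.71 for vehicle tumours. Without progesterone replicate 2 that of progesterone from vehicle tumours turned to 0.002.

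Abcg2, the breast cancer resistance protein, had 5.79 and 12 CPM in progesterone tumours, 10.5 and 5.04 CPM in vehicle tumours and 9.59 and 6.45 CPM in transgenic tumours. Within each group the libraries lay further apart than the group means, and all groups overlapped. Its log2 fold changes were 0.19 ± 0.51 in progesterone against vehicle, -0.04 ± 0.51 in vehicle against transgenic and 0.15 ± 0.51 in progesterone against transgenic tumours. Each changed sign without a library of either group compared: -0.42 and -0.24 without progesterone or vehicle replicate 2, 0.39 and 0.27 without vehicle replicate 2 or transgenic replicate 1, and -0.47 and -0.11 without progesterone or transgenic replicate 2.

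Abcc2, the canalicular exporter of conjugates in liver, had 0 and 7 counts in progesterone tumours, 3 and 0 counts in vehicle tumours and 1 and 2 counts in transgenic tumours. It did not pass the filter and was at or near the limit of detection in every library. All 8 pumps together summed to 432 and 399 CPM in progesterone tumours, 389.6 and 395 CPM in vehicle tumours and 380.3 and 449 CPM in transgenic tumours. This was 22.9% to 24.0% of all ABC CPM in every library.

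Among the exporters of cholesterol and phospholipid no difference passed the test. Abca1, which loads cholesterol and phospholipid onto apolipoprotein A-I and carries the DR4 letters upstream, had 83.5 and 128 CPM in progesterone tumours, 58.4 and 73.4 CPM in vehicle tumours and 46.2 and 70.3 CPM in transgenic tumours. Both progesterone libraries lay above the other 4, and vehicle and transgenic tumours overlapped. The log2 fold change was 0.68 ± 0.28 in progesterone against vehicle tumours (edgeR adjusted p = 0.939) and 0.86 ± 0.28 in progesterone against transgenic tumours (edgeR adjusted p = 0.914). Without progesterone replicate 2 these were 0.34 and 0.52. Abcg1, which passes cholesterol to high-density lipoprotein, had 26.9 and 26.8 CPM in progesterone tumours, 7.34 and 16.6 CPM in vehicle tumours and 8.74 and 24.2 CPM in transgenic tumours. The progesterone pair was nearly equal and above all others, while each other group held a low and a higher library. Its log2 fold change in progesterone against vehicle tumours was 1.17 ± 0.54 (edgeR adjusted p = 0.944), and was 0.68 without vehicle replicate 1 and 1.87 without vehicle replicate 2.

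Both genes are high in cholesterol-loaded macrophages, and macrophage transcripts also varied between the libraries. The 13 macrophage and monocyte markers summed to 2860 and 2617 CPM in progesterone tumours, 1541 and 1831 CPM in vehicle tumours and 1205 and 2685 CPM in transgenic tumours. Lyz2 was the largest member of this sum, at 1706 and 1185 CPM in progesterone, 806 and 1094 CPM in vehicle and 730 and 1523 CPM in transgenic tumours. In edgeR estimates 12 of 13 were higher in progesterone than in vehicle tumours (background 51.1%). Against transgenic tumours 12 of 13 were higher in progesterone tumours (background 51.0%) and 3 of 13 in vehicle tumours (background 48.5%). In each comparison 0 were called (background 0%). No marker of the list was at 0 in any library. Their part in the values of Abca1 and Abcg1 was not tested.

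Abcb4, which flips phosphatidylcholine into bile in the liver, had 4.13 and 3.06 CPM in progesterone tumours, 1.10 and 2.60 CPM in vehicle tumours and 0.741 and 0.632 CPM in transgenic tumours. These rest on 107 and 74 counts in progesterone tumours, 32 and 49 counts in vehicle tumours and 20 and 15 counts in transgenic tumours. The groups did not overlap, with progesterone tumours highest and transgenic tumours lowest. The log2 fold change was 2.38 ± 0.60 in progesterone against transgenic tumours (edgeR adjusted p = 0.914), 1.41 ± 0.59 in vehicle against transgenic tumours (edgeR adjusted p = 0.871) and 0.97 ± 0.57 in progesterone against vehicle tumours (edgeR adjusted p = 0.980). Without vehicle replicate 2 the value of vehicle against transgenic tumours was 0.67. That of progesterone against vehicle tumours was 0.46 without vehicle replicate 1 and 1.71 without vehicle replicate 2. Of its 50-base windows 3.15% were shared with Abcb1a. Its neighbour Abcb1b was highest in transgenic tumours, where Abcb4 was lowest. Summed mast cell and basophil markers (9 genes) were at 115 and 209 CPM in progesterone tumours. They were at 54.2 and 57.4 CPM in vehicle tumours and 48.2 and 42.2 CPM in transgenic tumours. In edgeR estimates 7 of 9 were higher in progesterone than in vehicle tumours (background 51.1%), with 0 called. Against transgenic tumours 7 of 9 were higher in progesterone (background 51.0%) and 8 of 9 in vehicle tumours (background 48.5%), with 0 called. Kit and Mcpt8 were lower in progesterone tumours in both comparisons. Mcpt8 had 0.0386 and 0.290 CPM in progesterone tumours and 4.01 and 2.23 CPM in vehicle tumours. Hdc, the largest member in vehicle tumours (24.1 and 26.2 CPM), had 30.8 and 7.50 CPM in transgenic tumours. None of these markers was at 0 in any library, and their part in the values of Abcb4 was not tested.

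Abca7, a phospholipid exporter that also takes part in phagocytosis, had 88.4 and 44.1 CPM in progesterone tumours, 69.3 and 65.4 CPM in vehicle tumours and 32.9 and 49.8 CPM in transgenic tumours. The vehicle pair was tight and above both transgenic libraries, and the progesterone pair overlapped both groups. For Abca7 the log2 fold change in vehicle against transgenic tumours was 0.70 ± 0.34 (edgeR adjusted p = 0.883), and 0.44 without transgenic replicate 1. Abcg4, a sterol exporter of brain, was at 0.717 to 1.70 CPM. Abcg5 and Abcg8, which pair to expel plant sterols in gut and liver, did not pass the filter and reached at most 0.296 and 0.0343 CPM. Over the 7 exporters the sum was 203.8 and 203.8 CPM in progesterone tumours, 138 and 159.7 CPM in vehicle tumours and 90.3 and 146 CPM in transgenic tumours. Both progesterone libraries were above the other 4, although members differed within this equal pair. Abca1 had 83.5 and 128 CPM there, and Abca7 ran the opposite way with 88.4 and 44.1 CPM.

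**Figure D3:**
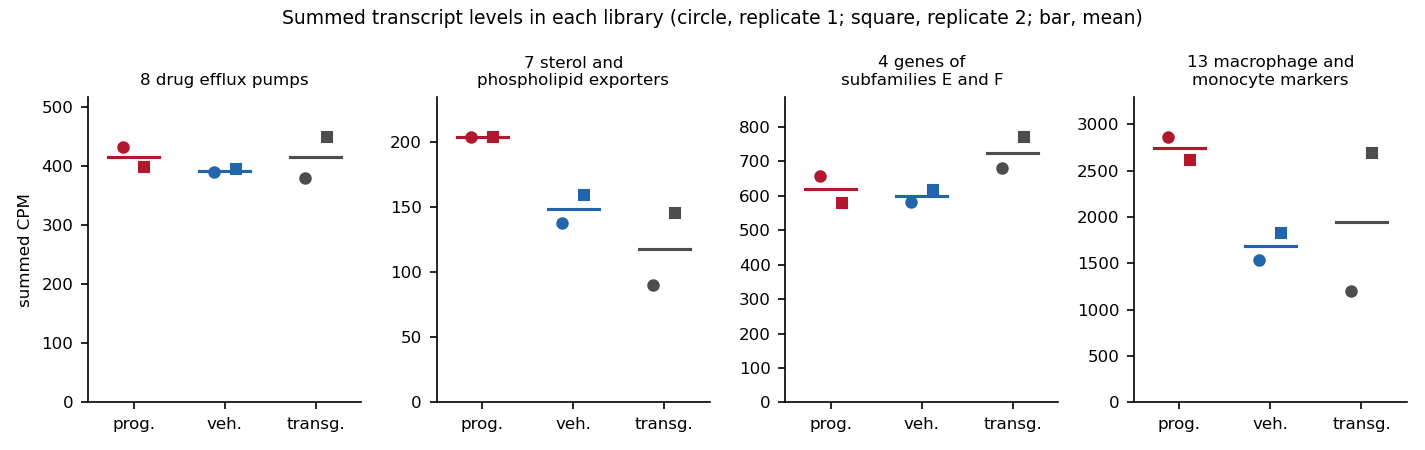
Summed CPM per library (circle, replicate 1; square, replicate 2; bar, mean) of the 8 pumps, the 7 sterol and phospholipid exporters, the 4 genes of subfamilies E and F and the 13 macrophage and monocyte markers, in progesterone, vehicle and transgenic tumours. Pump sums stay between 380.3 and 449 CPM, and exporter and macrophage sums are high in both progesterone libraries. Transgenic replicate 2 has a macrophage sum of 2685 CPM, between those of the progesterone libraries (2860 and 2617 CPM).

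Of the other lipid transporters of subfamily A, Abca3, which fills the surfactant bodies of type II alveolar cells, was at 85.5 and 67.9 CPM in progesterone tumours, 72.1 and 76.0 CPM in vehicle tumours and 56.0 and 72.5 CPM in transgenic tumours. Abca2, a lysosomal lipid transporter of myelin-forming cells, was at 43.0 and 39.1 CPM in progesterone tumours, 38.7 and 41.9 CPM in vehicle tumours and 32.8 and 35.1 CPM in transgenic tumours. Both were lowest in transgenic tumours, although the Abca3 pair there overlapped the other groups. Abca9 had 6.34 and 33.5 CPM in progesterone tumours, 7.86 and 8.96 CPM in vehicle tumours and 11.0 and 6.79 CPM in transgenic tumours. Progesterone replicate 2 stood apart from all others, and the log2 fold change in progesterone against vehicle tumours of 1.24 ± 0.69 (edgeR adjusted p = 0.969) was -0.41 without it. Abca4, the retinoid transporter of photoreceptors, had 0.502 and 1.41 CPM in progesterone tumours, 1.92 and 1.54 CPM in vehicle tumours and 1.93 and 2.95 CPM in transgenic tumours. Its log2 fold change in progesterone against vehicle tumours was -0.86 ± 0.64 (edgeR adjusted p = 0.999), and was -0.31 without progesterone replicate 1 and -1.78 without progesterone replicate 2.

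Abca8a had 2.74 and 8.32 CPM in progesterone tumours, 12.8 and 10.7 CPM in vehicle tumours and 15.0 and 2.15 CPM in transgenic tumours, so that the extremes were both in the transgenic pair. Abca5, Abca6, Abca8a, Abca8b and Abca9 lie together within 406 kb of chromosome 11 (109932190 to 110337716). In all 5 genes progesterone replicate 1 was below progesterone replicate 2, and in all 5 transgenic replicate 1 was above transgenic replicate 2. In the vehicle pair, replicate 1 was above replicate 2 in 4 of the 5 genes, all but Abca9. Fibroblast markers summed to 5333 and 10678 CPM in progesterone, 6952 and 11702 CPM in vehicle and 7807 and 1958 CPM in transgenic tumours. This sum ran the same way as the 5 genes in the progesterone and transgenic pairs and opposite to 4 of them in the vehicle pair. Col3a1 was its largest member, at 3637 and 6934 CPM in progesterone, 5311 and 8606 in vehicle and 6169 and 1414 in transgenic tumours. Dcn and Dpt ran against the sum in the progesterone pair, and Col1a2 did in the vehicle pair. Col1a1, Col1a2 and Thy1 ran against it in the transgenic pair, and the other markers ran with it in each pair. The part of fibroblasts in the chromosome 11 values was not tested. Abca13 was at 0.253 to 1.22 CPM and Abca12, a lipid transporter of the skin barrier, at 0.0343 to 0.331 CPM. Of the rodent or testis genes, Abca16 was at 0.0773 to 0.786 CPM, and Abca14, Abca15 and Abca17 did not pass the filter. All 16 genes of subfamily A summed to 316 and 338 CPM in progesterone tumours, 277 and 286 CPM in vehicle tumours and 209.5 and 245 CPM in transgenic tumours, with no overlap between groups.

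Of the transporters of mitochondria, Abcb10, linked to haem synthesis in red cell precursors, was at 31.2 to 49.2 CPM, with its highest value in transgenic replicate 2. Abcb8 was at 30.1 to 47.2 CPM and the porphyrin transporter Abcb6 at 13.5 to 18.8 CPM. The lysosomal peptide transporter Abcb9 had 27.4 and 32.1 CPM in progesterone tumours, 52.3 and 34.9 CPM in vehicle tumours and 44.0 and 17.4 CPM in transgenic tumours, and both vehicle libraries were above the progesterone pair. The bile salt pump Abcb11 stayed at or under 0.843 CPM.

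Members of subfamily D serve peroxisomes and lysosomes. Abcd4, which helps cobalamin leave the lysosome, had 88.8 and 67.1 CPM in progesterone tumours, 78.6 and 63.1 CPM in vehicle tumours and 48.1 and 54.9 CPM in transgenic tumours. Both transgenic libraries were lowest, and progesterone and vehicle tumours overlapped. The log2 fold change of Abcd4 was 0.60 ± 0.20 in progesterone against transgenic tumours (edgeR adjusted p = 0.914) and 0.46 ± 0.20 in vehicle against transgenic tumours (edgeR adjusted p = 0.871). Without progesterone replicate 1 the first was 0.38, and without vehicle replicate 1 the second was 0.30. Abcd3, a peroxisomal fatty acid importer, was at 40.8 to 54.3 CPM and Abcd2 at 3.52 to 7.44 CPM. Neither separated the tumours of ovariectomized hosts from those of hosts with no ovariectomy named.

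The ribosome-associated members were, summed, highest in transgenic tumours. Subfamilies E and F summed to 658 and 579 CPM in progesterone tumours, 581 and 616 CPM in vehicle tumours and 681 and 769.8 CPM in transgenic tumours. Abce1, the ribosome recycling factor, had 248.8 and 263 CPM in progesterone tumours, 256 and 259.6 CPM in vehicle tumours and 298 and 363 CPM in transgenic tumours. The 4 libraries of ovariectomized hosts lay close together below both transgenic libraries. For Abce1 the log2 fold change was -0.37 ± 0.17 in progesterone against transgenic tumours (edgeR adjusted p = 0.914) and -0.36 ± 0.17 in vehicle against transgenic tumours (edgeR adjusted p = 0.883). Without transgenic replicate 2 these were -0.22 and -0.21. Abcf2, a relative of the yeast translation factor Gcn20, had 110.2 and 96.4 CPM in progesterone tumours, 98.8 and 99.0 CPM in vehicle tumours and 134 and 119 CPM in transgenic tumours. Both transgenic libraries were again highest, and the log2 fold change in vehicle against transgenic tumours was -0.36 ± 0.15 (edgeR adjusted p = 0.871). Abcf1, which acts on translation initiation, was at 176 to 237 CPM, and its transgenic pair lay above its vehicle pair while the progesterone pair overlapped both groups. Abcf3 was at 40.7 to 63.2 CPM, and no group of it stood apart from both others.

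**Figure D4:**
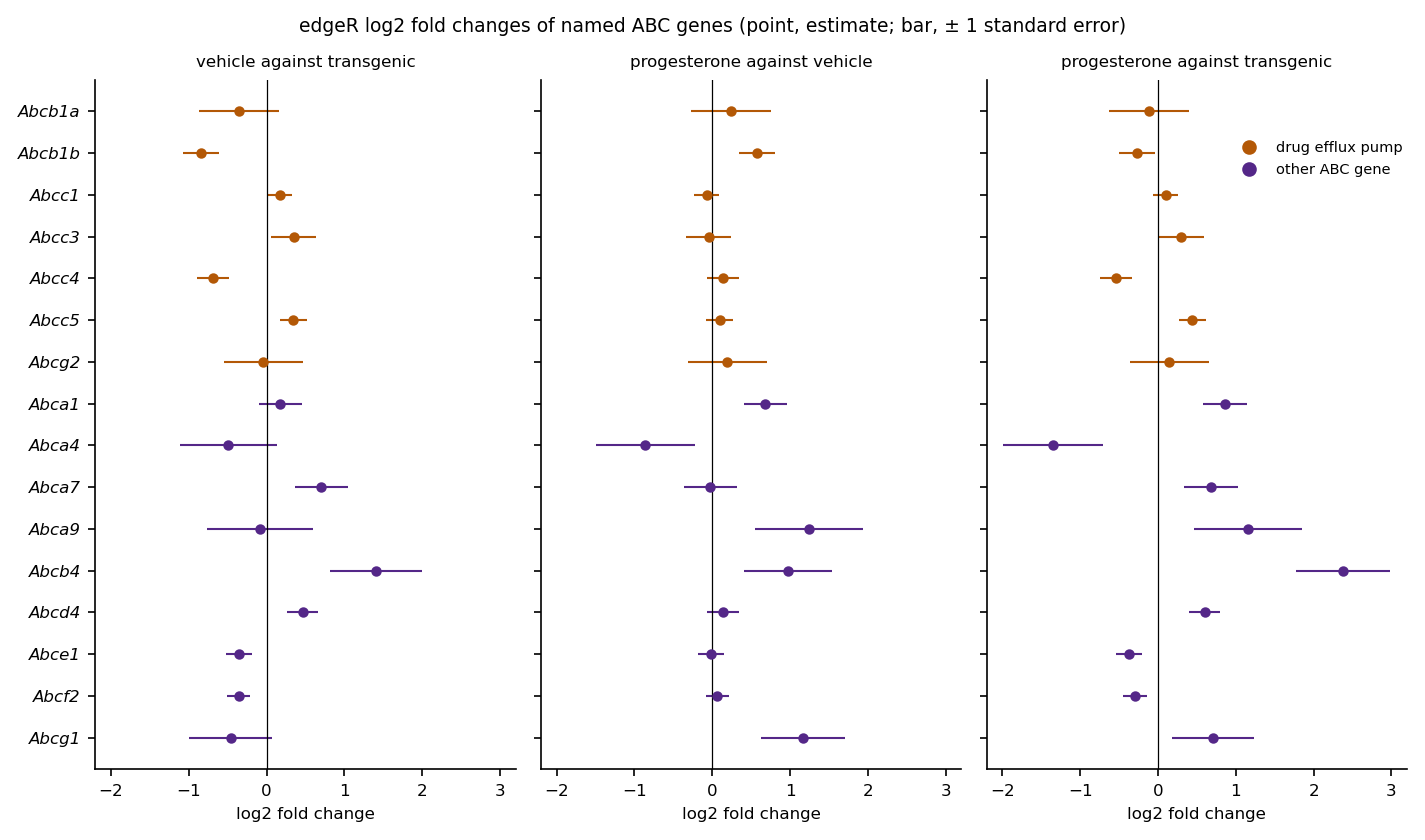
edgeR log2 fold change of the 7 tested pumps and of other named ABC genes in vehicle against transgenic, progesterone against vehicle and progesterone against transgenic tumours, with bars of 1 standard error. The largest is Abcb4 at 2.38 in progesterone against transgenic tumours, Abcb1b (-0.84) and Abcc4 (-0.68) lie furthest from 0 among the pumps in vehicle against transgenic tumours, and no gene passed the test.

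Among the remaining members, Abcc9, the sulphonylurea receptor of vascular potassium channels, had 5.41 and 17.8 CPM in progesterone tumours, 13.4 and 12.03 CPM in vehicle tumours and 12.7 and 12.6 CPM in transgenic tumours. The progesterone pair held both extremes, and it also held those of the sum of the 10 markers of pericytes and smooth muscle. This sum was 116 and 311 CPM in progesterone tumours, 182 and 224 CPM in vehicle tumours and 183 and 299 CPM in transgenic tumours. Of the markers, only Rgs5, Acta2 and Notch3 had both extremes in the progesterone pair. Rgs5 had 19.8 and 84.4 CPM there, whereas Pdgfrb (89.4 CPM) and Mcam (114 CPM) were highest in transgenic replicate 2. The part of these cells in the values of Abcc9 was not tested. Abcg3, a gene of rodents only, had 10.1 and 7.45 CPM in progesterone tumours, 1.58 and 7.84 CPM in vehicle tumours and 2.48 and 11.0 CPM in transgenic tumours, with a low library in each of the last groups. Abcc10, a further multidrug resistance protein that the list of pumps does not include, was steady at 8.18 to 11.7 CPM. The 11 members that did not pass the filter were Abca12, Abca14, Abca15, Abca17, Abcb5, Abcc2, Abcc6, Abcc8, Abcc12, Abcg5 and Abcg8. Their highest value in any library was 0.414 CPM, and 4 of them had fewer than 10 counts over all libraries. Abcb5 was seen in progesterone replicate 2 alone, with 4 counts, and Abcg8 in vehicle replicate 1 alone, with 1 count. In all, 43 of the 50 genes had a count above 0 in every library.

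The log2 CPM gap between the replicates of some group was above 1 in 18 of the 39 tested genes and under 0.5 in every group in 13 of them, and the median of each gene's largest gap was 0.65. Abca16, Abca8a and Abca9 had gaps of 3.35, 2.80 and 2.40, whereas Abca2, Abcf2 and Abcc1 had none above 0.24. The pumps fell on both sides, with Abcb1a at 1.39 and Abcg2 at 1.06 beside Abcc5 at 0.38.

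**Figure D5:**
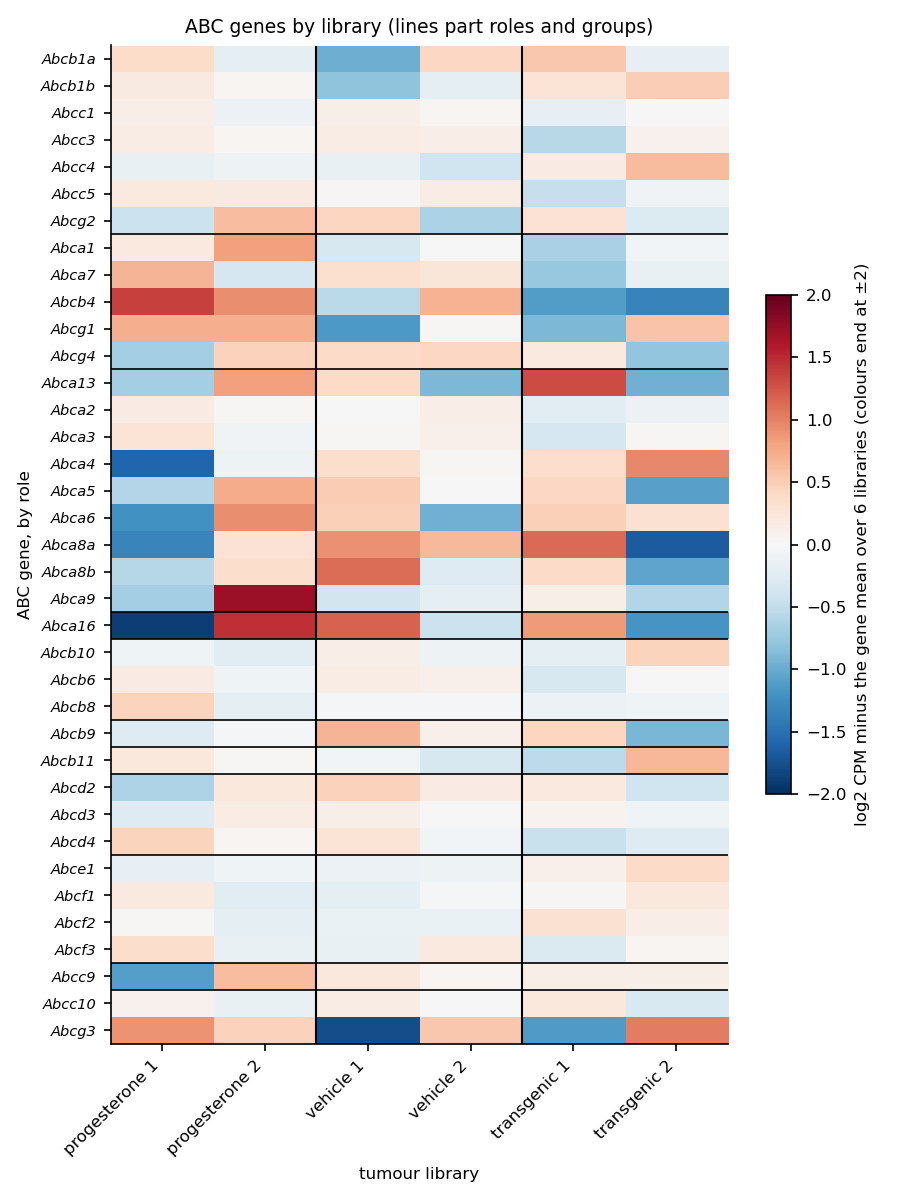
Log2 CPM of 37 of the 39 tested ABC genes in each library minus that gene's mean over the 6 libraries (red above, blue below; colours end at 2), with genes ordered by role and libraries by group. Rows of subfamilies E and F are pale, rows such as Abca9, Abca8a and Abcg3 differ between replicates, and Abcb4 is red in both progesterone and blue in both transgenic libraries.

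Genes around the pumps gave no call either, and edgeR called 0 members of each related list in every comparison. The share of all genes tested that were higher was 51.1% in progesterone against vehicle and 48.5% in vehicle against transgenic tumours. In progesterone against transgenic tumours it was 51.0%, and the medians of all genes were 0.01, -0.01 and 0.01 in that order. These values are the background of every list below. Of the 13 tested regulators of pumps and sterol exporters, 6 were higher in progesterone than in vehicle tumours, 9 higher in vehicle than in transgenic tumours and 10 higher in progesterone than in transgenic tumours. Their median log2 fold changes in that order were -0.01, 0.10 and 0.12. Hif1a, the hypoxia factor, had 39.02 and 48.5 CPM in progesterone tumours, 77.8 and 62.2 CPM in vehicle tumours and 52.8 and 67.2 CPM in transgenic tumours, and its log2 fold change in progesterone against vehicle tumours was -0.68 ± 0.21 (edgeR adjusted p = 0.932). Foxo3, a stress-response transcription factor, was at 98.1 to 136 CPM. Of 14 genes of sterol handling, 5 were higher in progesterone than in vehicle tumours, 11 higher in vehicle than in transgenic tumours and 7 higher in progesterone than in transgenic tumours, with medians of -0.09, 0.21 and 0.01 in that order. Lipoprotein lipase, Lpl, had 9.78 and 17.05 CPM in progesterone tumours, 1.17 and 4.98 CPM in vehicle tumours and 5.74 and 10.1 CPM in transgenic tumours. Its log2 difference of progesterone from vehicle tumours was 2.14 ± 0.70 (edgeR adjusted p = 0.932).

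Of 20 drug-metabolizing genes, 12 were higher in progesterone than in vehicle tumours (background 51.1%) and 14 higher in vehicle than in transgenic tumours (background 48.5%). In progesterone against transgenic tumours 15 were higher (background 51.0%), and the medians were 0.07, 0.30 and 0.44 in that order. At an unadjusted p under 0.05 edgeR had 1, 1 and 0 of the 20 (backgrounds 5.29%, 5.57% and 5.27%). Gclm, a subunit of the enzyme that limits glutathione synthesis, had 55.8 and 53.5 CPM in vehicle tumours, against 86.4 and 68.8 CPM in transgenic tumours. The microsomal glutathione transferase Mgst1 had 2.86 and 15.6 CPM in progesterone tumours, against 1.58 and 1.38 CPM in vehicle tumours. Of 11 solute carriers that take up drugs, 4 were higher in progesterone than in vehicle tumours, 2 higher in vehicle than in transgenic tumours and 3 higher in progesterone than in transgenic tumours, with medians of -0.07, -0.12 and -0.08 in that order. The nucleoside carrier Slc29a1, which imports nucleoside drugs, had 69.9 and 89.7 CPM in progesterone tumours, 74.3 and 84.8 CPM in vehicle tumours and 111 and 156 CPM in transgenic tumours. Both transgenic libraries were above the 4 others, as with Abcc4, and the log2 fold change in vehicle against transgenic tumours was -0.75 ± 0.22 (edgeR adjusted p = 0.811). The prostaglandin carrier Slco2a1 was at 0.318 to 10.3 CPM.

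Of 11 vault and other resistance genes, 6 were higher in progesterone than in vehicle tumours, 6 higher in vehicle than in transgenic tumours and 5 higher in progesterone than in transgenic tumours, with medians of 0.01, 0.04 and -0.01 in that order. Topoisomerase Top2a, the target of etoposide, had 349 and 465 CPM in progesterone tumours, 265 and 325 CPM in vehicle tumours and 412 and 646 CPM in transgenic tumours. The DNA repair gene Mgmt was at 6.11 to 13.3 CPM. Of the ABC genes that bear other names, Tap1 and Tap2, the peptide pump of antigen presentation, passed the filter and Cftr did not. Of these 2, 1 was higher in progesterone than in vehicle tumours, and both were lower in the other comparisons. Tap1 had 33.9 and 19.3 CPM in progesterone tumours, 11.9 and 14.4 CPM in vehicle tumours and 12.85 and 43.1 CPM in transgenic tumours, and Tap2 was at 49.9 to 82.5 CPM. The transgenic pair held both a low and the highest library for Tap1.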

How the data were processed

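Messenger RNA of 6 LLC1 tumours was sequenced from a directional library kit. The deposited table holds raw read counts per gene, with no normalization by the authors. HISAT2, HTSeq, DESeq and the build GRCm38.p6 are named, per the submitters' processing notes; the sources used here give no version, setting or use of strand. Of its 19288 rows, 0 name no gene. Coordinates and exon lengths come from the GENCODE annotation of GRCm38, in which all 50 members were found by gene ID. In R 4.3.3, edgeR 4.0.16 kept 13632 genes (filterByExpr), scaled libraries by TMM and fitted 1 quasi-likelihood model to all 6 libraries, leaving 3 residual degrees of freedom. P-values were adjusted over all genes by Benjamini and Hochberg's method, with calls at under 0.05. CPM values are TMM-scaled. Log2 gaps between replicates are ratios of these CPM values with no prior count, so gaps of low-count genes are not damped. A prior count of 2 was used only for correlating replicate differences over genes. Alternatives were DESeq2 1.42.0, limma-voom (limma 3.58.1), other scalings, no filter, 2 groups alone, a replicate block and leaving out each library. Members and lists were chosen with earlier results of these data known. Besides the pumps, up to 5 members per comparison are named, by smallest unadjusted p where the higher group reached 1 CPM; related lists name up to 2 members each. A few genes are not reported here and were not replaced. The fit was tested on simulated counts. Replicates of a group were not copies of a library: their counts differed by 38.8 to 98.1 times the sampling noise (chi-square per degree of freedom).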

Additional observations from a re-analysis of the deposited data

How the results depend on the processing

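ABC genes called stayed at 0 in every comparison under all alternatives, including DESeq2, limma-voom, no filter and each library left out. Replicate differences correlated at -0.125 between progesterone and vehicle, -0.174 between progesterone and transgenic and 0.08 between vehicle and transgenic tumours. Little was thus shared by replicate number. The labels do not say whether the numbers pair samples, and these values cannot decide it. With a replicate block, 0 ABC genes were called in each comparison, and likewise 0 with the progesterone numbers crossed, which was added after seeing the data. With library totals alone in place of TMM, the median log2 fold change in progesterone against vehicle tumours was 0.13 for ABC genes and 0.23 for pumps, and Abcc1 (0.0136) and Abcc3 (0.0362) changed sign. Of 36 values of named genes, 10 changed sign in some alternative, and 2 did so other than by leaving out a library.

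Leaving out each library gave these ranges of log2 fold change. In vehicle against transgenic tumours the median of pumps ran from -0.30 to 0.20, Abcb1a from -1.20 to 0.19 and Abcg2 from -0.67 to 0.39. In progesterone against vehicle tumours the median of ABC genes ran from -0.0353 to 0.0541, that of pumps from 0.0163 to 0.14, Abcb1a from -0.30 to 1.09, Abcg2 from -0.42 to 0.81, Abcc1 from -0.20 to 0.0456, Abcc3 from -0.10 to 0.00242 and Abca9 from -0.41 to 1.99. In progesterone against transgenic tumours the median of ABC genes ran from -0.16 to 0.19, that of pumps from -0.11 to 0.15, Abcb1a from -0.42 to 0.29, Abcg2 from -0.47 to 0.58 and Abcc1 from -0.0268 to 0.21. The causes were not tested. With 2 libraries a group, a gene left uncalled may still differ, and members under about 0.1 CPM rest on a few counts.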
